A study of Rattus norvegicus with 48 samples.

Results

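miR-9a was followed through its 5 names in the deposited table of small RNA levels, the arms miR-9a-5p and miR-9a-3p and the precursors mir-9a-1, mir-9a-2 and mir-9a-3. They were chosen by name, with earlier results of these data known, and are 5 of the 1063 names in the table. Rows that share a name were summed. The 48 libraries came from the amygdala and the ventral striatum of Long Evans rats at postnatal day 42. Each library was a pool of RNA from 3 rats of 1 sex, so differences between single animals cannot be seen. Both regions were dissected from the same rats, so libraries of different regions are not independent. Dams were injected with ethanol or saline on gestational day 12, and the offspring were kept from weaning on day 21 either with littermates (non-enriched) or with unfamiliar rats of the same sex from untreated dams (socially enriched). This gave 4 treatment groups, saline non-enriched, saline enriched, ethanol non-enriched and ethanol enriched, with 6 libraries each in each region (3 female and 3 male). All animals had been through a test of social interaction and were anaesthetised with ketamine and xylazine before the brain was taken. The series' design text calls the replicates sequencing runs and the study's methods describe separate pools, so p-values measure the spread between these libraries.

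miR-9 is one of the most abundant microRNAs of the brain. It is transcribed from 3 loci, and each hairpin is cut into a 5p and a 3p arm, either of which can be loaded into the silencing complex and guide it to messenger RNAs through its seed, bases 2 to 8. In the developing brain miR-9 limits the proliferation of neural progenitors and promotes their differentiation, and in mature neurons it is known as an ethanol-sensitive microRNA that acts on transcripts of the BK potassium channel.

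The mature arms are shown first because they set what the table can tell apart. Seeds are in capitals, and the sequences are from RefSeq (GRCr8 table), written 5′ to 3′.
miR-9a-5p: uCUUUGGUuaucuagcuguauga
miR-9a-3p: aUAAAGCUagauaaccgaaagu
Each arm was identical in the 3 hairpins, and none of the other mature names of the table that matched RefSeq (564 of 612 names matched, these 2 included) had either seed. The hairpins of 89, 87 and 90 bases differed in the loop between the arms, given here in capitals with 6 bases of each arm in lower case.
mir-9a-1: guaugaGUGGUGUGGAGUCUUCauaaag
mir-9a-2: guaugaGUGUAUUGGUCUUCauaaag
mir-9a-3: guaugaGUGCCACAGAGCCGUCauaaag
The first 3 bases past the 5p arm and the first base past the 3p arm were the same in all 3 hairpins. A read of 1 arm with at most that much extra at its 3′ end therefore matches all 3 loci.

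The precursor rows held the reads of the arms. In every library the 3 precursor rows together came to between 1.005 and 1.009 reads for each read of the 2 arms. The 5p arm had 3 rows in the table before summing, and the share of each row differed from the share of 1 precursor row by at most 0.421 percentage points in all 48 libraries. The 3 rows of the 3p arm followed less closely, up to 10.3 points away. The precursor rows are therefore no measurement of the hairpins separate from the arms. How reads that match several loci were divided was not given in the sources used here.

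That division took at least 2 forms. The ratio of mir-9a-1 to mir-9a-2 ran from 0.528 to 0.633 in 24 libraries and from 0.930 to 1.01 in the other 24, with no library between. The same libraries separated by the ratio of mir-181a-1 to mir-181a-2, precursors of another microRNA with several loci, which ran from 0.504 to 0.524 in the first set and from 0.685 to 0.781 in the second. They are called here the low and the high class, and a class was assigned at 0.6 of the mir-181a ratio, after the values were seen. mir-9a-1 took 21.5% to 24.7% of the 3 precursor rows in the low class and 33.3% to 35.6% in the high class. mir-9a-3 moved the other way, from 35.8% to 38.7% in the low class to 29.0% to 31.5% in the high class. mir-9a-2 changed least, with 38.4% to 40.7% against 34.4% to 35.8%.

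The classes were level over the treatments and unequal over the regions. Each sex and treatment had 2 low and 1 high library in the amygdala and 1 low and 2 high in the ventral striatum, 16 low and 8 high against 8 low and 16 high in all. In the amygdala the class also went with depth, since its 8 high libraries had 363135 to 622123 mature reads and its 16 low libraries 669389 to 1287664, so class and depth cannot be told apart there. The methods state that libraries were multiplexed in 6 sets of 8, but the labels do not give the set of a library, and the part of the sets in the classes was not tested. The further gap within the high class set apart ventral striatum libraries only, so it is nested in region. A term for the 2 classes in the region fits does not take it up.

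**Figure D1:**
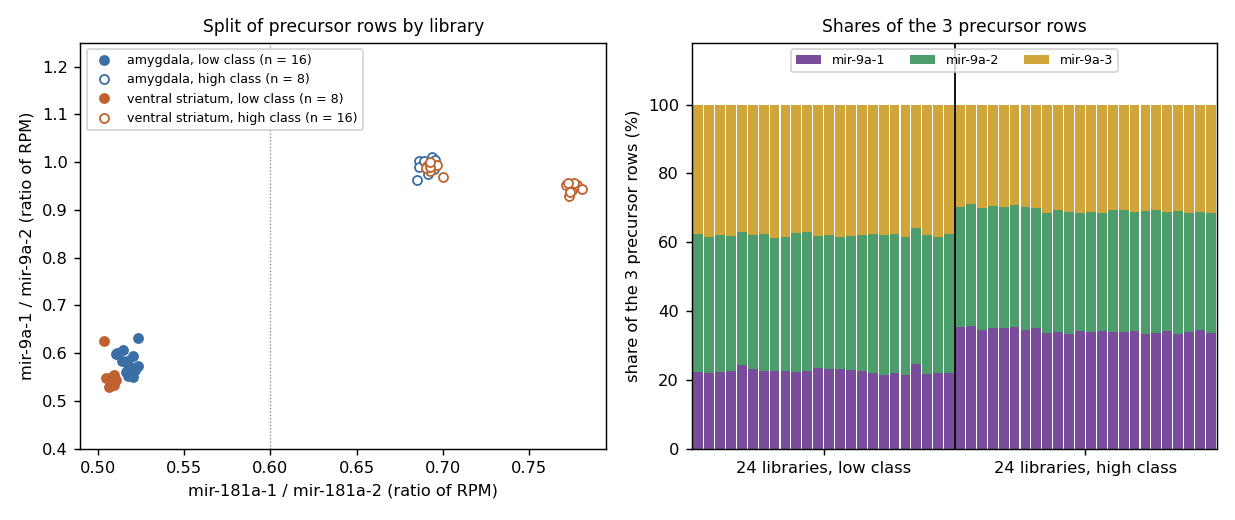
Left, ratio of mir-9a-1 to mir-9a-2 against the ratio of mir-181a-1 to mir-181a-2 (ratios of RPM), 1 point a library; the dotted line marks 0.6. Right, share in percent of each precursor row in the 3 rows, 1 bar a library. The 24 low and 24 high libraries do not overlap on either ratio, and mir-9a-1 takes 21.5% to 24.7% of the rows in the low and 33.3% to 35.6% in the high class.

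Levels are given in the deposited unit, RPM (reads scaled to a fixed total), where mature names and precursor names are each scaled to the same total in a library. Libraries held 363135 to 1370425 mature reads, as read from the step between low values, with 11218 to 52695 of miR-9a-5p and 371 to 1661 of miR-9a-3p. miR-9a-5p lay between 21813 and 42732 RPM (median 32066) and ranked from 4 to 11 among the mature names. miR-9a-3p lay between 801 and 1290 RPM (median 1044) and ranked from 69 to 87. The 5p arm was the main product in all 48 libraries, 20.2 to 40.9 times the 3p arm. As a share of both arms miR-9a-3p ran from 2.39% (999 of 41871 reads, 95% Wilson interval 2.24% to 2.54%) to 4.73% (1160 of 24547 reads, 4.47% to 5.0%), both in ventral striatum libraries. Such intervals cover counting error only.

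The region comparison asks whether the amygdala and the ventral striatum differ in miR-9a. miR-9a-5p averaged 32035 ± 4017 RPM in the amygdala and 31431 ± 5303 RPM in the ventral striatum (SD, n = 24 each). miR-9a-3p averaged 1052 ± 119 RPM and 1032 ± 102 RPM. Both arms overlapped widely between the regions. The log2 difference, amygdala minus ventral striatum on the log2(RPM + 1) scale, was 0.04 (SE 0.07, 95% interval -0.10 to 0.17) for the 5p arm and 0.03 (SE 0.05, -0.07 to 0.12) for the 3p arm. By limma with Benjamini-Hochberg adjustment over all 968 names tested, adjusted p was 0.744 for the 5p arm and 0.740 for the 3p arm. Of all names, 28.5% were called between the regions at an adjusted p under 0.05, and 0 of the 5 miR-9a names were. A permutation test of the RPM values with 100000 draws gave p = 0.657 for the 5p arm and 0.532 for the 3p arm (two-sided). That test treats the libraries as independent. In the labels the library numbers run in 24 consecutive pairs of 1 ventral striatum and 1 amygdala library of the same sex and treatment, and whether a pair holds the same 3 rats was not given in the sources used here. With these pairs as a random block in limma the log2 differences stayed at 0.04 and 0.03, with adjusted p of 0.734 and 0.725. A sign permutation within pairs gave p = 0.693 for the 5p arm, higher in the amygdala in 15 of 24 pairs, and 0.522 for the 3p arm, higher in 12 of 24.

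Within the treatment groups the saline non-enriched rats stood at 1 end for miR-9a-5p. There it averaged 35402 RPM in amygdala libraries and 30841 RPM in their ventral striatum partners, and it was higher in the amygdala in 6 of 6 pairs (difference 4561 ± 3217 RPM, SD over pairs). The exact sign permutation gave p = 0.03125, the smallest that 6 pairs can give, and 0.3125 after Benjamini-Hochberg adjustment over 20 such tests (5 names in 4 groups). In the other 3 groups it was higher in 3 of 6 pairs each. The same 6 amygdala libraries enter both treatment comparisons with the saline non-enriched group given further on. mir-9a-2 gave the same count and p, and the other 3 names did not reach it in any group.

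The precursor rows differed in direction. mir-9a-1 averaged 7657 ± 1670 RPM in the amygdala and 8370 ± 2113 RPM in the ventral striatum, while mir-9a-2 (10929 ± 1585 and 10245 ± 1720 RPM) and mir-9a-3 (10119 ± 1863 and 9275 ± 1655 RPM) went the other way. Their log2 differences were -0.11 (SE 0.11) for mir-9a-1, 0.10 (SE 0.07) for mir-9a-2 and 0.12 (SE 0.09) for mir-9a-3, with adjusted p from 0.305 to 0.489 by limma. After median-ratio rescaling they were -0.04, 0.17 and 0.20 (adjusted p of 0.871, 0.0674 and 0.0756), and the arms were at 0.10 (5p) and 0.09 (3p), none of them called. With the library class as a term in the model the value of mir-9a-1 was 0.08 (SE 0.06) and those of mir-9a-2 and mir-9a-3 were 0.026 and 0.0037, with 0 of the 5 names and 29.8% of all names called. With the mature reads of a library as the only covariate, mir-9a-1 passed the threshold as lower in the amygdala (-0.34, adjusted p = 0.0133 by limma) and mir-9a-3 as higher (0.25, adjusted p = 0.0391). With class and reads both in the model the values were 0.037 and -0.0059, with adjusted p of 0.873 and 0.998 by limma.

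The first treatment comparison is prenatal ethanol against saline in rats without enrichment. In the amygdala both arms were lower on average after ethanol, and the difference did not pass the test across all names. miR-9a-5p was 32162, 33682 and 37760 RPM in the saline female libraries and 40923, 32995 and 34890 RPM in the saline male libraries. After ethanol it was 31214, 21813 and 33038 RPM in the female libraries and 31859, 35326 and 26994 RPM in the male libraries. The means were 35402 ± 3333 and 30041 ± 4870 RPM (SD, n = 6 each), with 4 of the 6 ethanol libraries below the lowest saline library and the other 2 within the saline range. The log2 difference was -0.25 (SE 0.11, 95% interval -0.48 to -0.02), with adjusted p = 0.842 by limma over 910 names. An exact permutation test of the RPM values (two-sided) gave p = 0.0455.

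miR-9a-3p followed with a smaller difference in RPM. It was 1212, 994 and 1193 RPM in the saline female libraries and 1290, 935 and 1117 RPM in the saline male libraries, against 1179, 801 and 922 RPM and 1018, 1015 and 926 RPM after ethanol. The groups overlapped, with means of 1124 ± 136 and 977 ± 127 RPM. The log2 difference was -0.20 (SE 0.09), with adjusted p = 0.842 by limma, and the exact permutation test gave p = 0.0823.

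The 3 precursor rows gave log2 differences of -0.23 (mir-9a-1), -0.24 (mir-9a-2) and -0.24 (mir-9a-3), close to the arms whose reads they hold. Their standard errors were wider, 0.19, 0.13 and 0.18, and adjusted p was 0.842 to 0.850 by limma. With the library class in the model the standard errors were 0.10, 0.11 and 0.10, and adjusted p was 0.643 to 0.665 for the 5 names by limma. The differences stayed the same, which the equal split of classes over the treatments fixes in advance. No name of the table passed an adjusted p under 0.05 in this comparison (0% of 910 names), while 41 (4.51%) had an unadjusted p under 0.05. Both arms were among the 33 names lower at that unadjusted threshold (3.63% of names), and the median over all names was -0.08. With libraries rescaled by median ratios, the differences were -0.14 for the 5p arm and -0.09 for the 3p arm, neither with an unadjusted p under 0.05, and 17 names were lower at that threshold. The study's own selections rest on these same libraries and on arrays of the same RNA pools. They include mir-9a-2 for this comparison and miR-9a-3p for enrichment after saline, both in the amygdala, so their direction here is not independent evidence.

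Markers of choroid plexus and ependyma, tissue that lines the ventricles beside the amygdala, moved with this comparison. All 7 of the 7 listed markers were higher on average in the ethanol non-enriched amygdala and 0 had an unadjusted p under 0.05. Their summed level ran from 3675 to 41785 RPM (median 9708) in the saline libraries and from 4094 to 145266 RPM (median 37736) in the ethanol libraries, with miR-34b-5p and miR-449a-5p each at 0 in 1 saline library and no marker at 0 in the ethanol libraries. The 2 ethanol libraries with the highest sums, female replicate 2 at 145266 RPM and male replicate 3 at 129171 RPM, were also the 2 with the lowest miR-9a-5p, 21813 and 26994 RPM. Other amygdala libraries did not show this. The saline library with the highest sum, female replicate 3 at 41785 RPM, had 37760 RPM of miR-9a-5p. Saline enriched male replicate 2 had 25195 RPM of it with a sum of 6156 RPM. With those 7 markers left out of the total, the log2 difference was -0.18 for the 5p arm and -0.13 for the 3p arm, each with adjusted p = 0.906 by limma. Without female replicate 2 it was -0.16 and -0.14 for the arms, and -0.25, -0.12 and -0.09 for mir-9a-1, mir-9a-2 and mir-9a-3, each with an adjusted p of 1. Other marker lists moved less: 4 of 4 neuronal markers were lower (median log2 difference -0.24, close to miR-9a-5p) and 3 of 3 oligodendrocyte markers higher (0.18), and 0 of either had an unadjusted p under 0.05. The part of these markers in the miR-9a difference, beyond the scaling above, was not tested. In bulk tissue fewer cells of a type and less RNA per cell cannot be told apart.

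**Figure D2:**
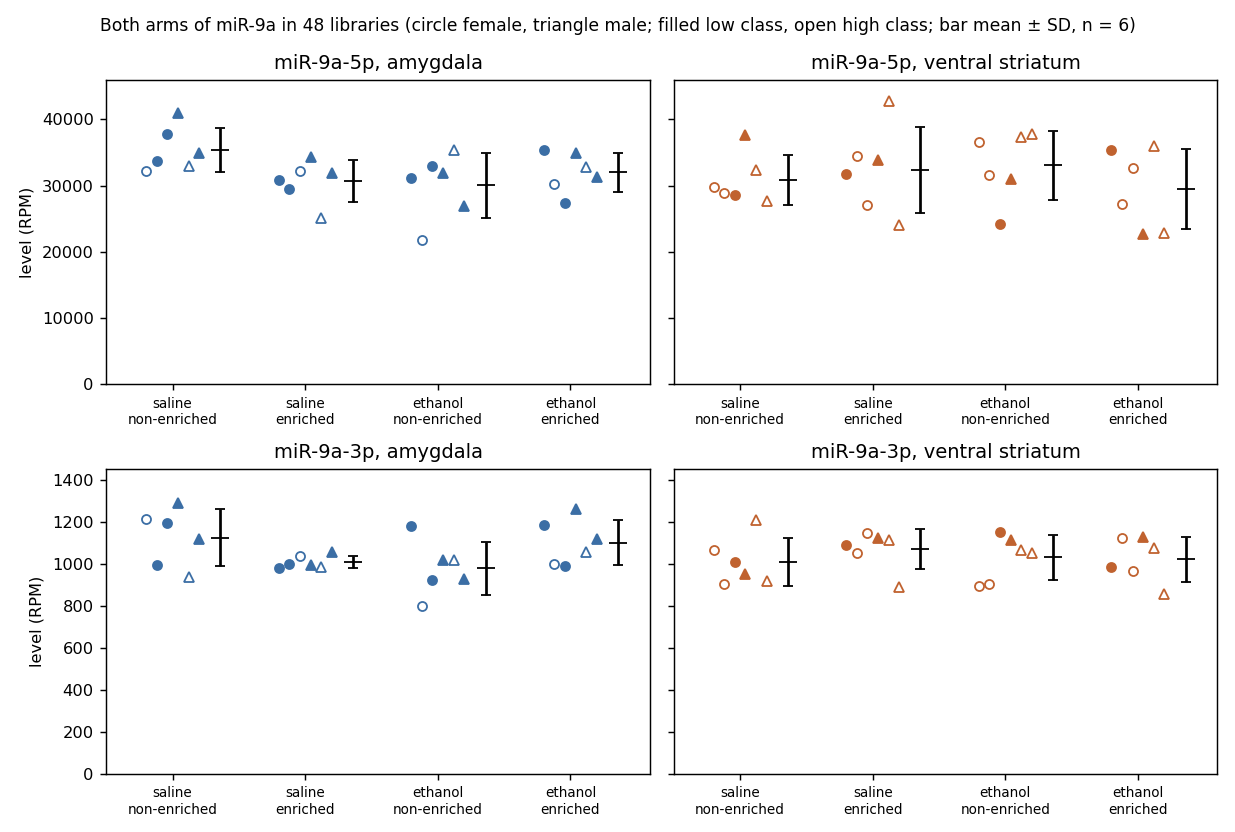
Level of miR-9a-5p (top) and miR-9a-3p (bottom) in RPM by treatment group, amygdala left and ventral striatum right, 1 symbol a library with the mean and SD (n = 6) beside it. In the amygdala the saline non-enriched group has the highest mean of both arms, 35402 and 1124 RPM, and all groups overlap.

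Enrichment was compared with non-enrichment in the saline groups next. This comparison uses the same 6 saline non-enriched libraries, so the 2 results are not independent. In the enriched amygdala miR-9a-5p was 30912, 29549 and 32179 RPM in the female libraries and 34398, 25195 and 31971 RPM in the male libraries. The mean of 30701 ± 3136 RPM was below that of the non-enriched group, and the groups overlapped. The log2 difference was -0.21 (SE 0.11, 95% interval -0.44 to 0.02), with an adjusted p of 1 by limma. The exact permutation test gave p = 0.0216. It and the ethanol comparison above were the 2 of 40 exact tests of miR-9a names with p under 0.05, about the share that chance alone gives. Both were of miR-9a-5p, and the 40 tests include the precursor rows, which hold the reads of the arms. miR-9a-3p was tightly grouped in the enriched amygdala, from 980 to 1054 RPM with a mean of 1008 ± 30.1 RPM, and its log2 difference was -0.15 (SE 0.09, exact permutation p = 0.0714). The study selected miR-9a-3p as lower in this comparison, so its direction here is not independent evidence. The precursor rows gave -0.18, -0.20 and -0.22, each with an adjusted p of 1. No name of the 910 was called here (0%), and 24 (2.64%) had an unadjusted p under 0.05.

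In the ethanol groups and in the enriched groups of the amygdala the values went the other way. miR-9a-5p averaged 31998 ± 3011 RPM in the ethanol enriched amygdala, from 27377 to 35353 RPM. miR-9a-3p averaged 1100 ± 107 RPM there. Enriched minus non-enriched after ethanol gave 0.10 for the 5p arm and 0.18 for the 3p arm, and ethanol minus saline in enriched rats gave 0.06 and 0.12, with adjusted p of 1 by limma for each arm. No name passed in either comparison (0% each), with 2.64% and 3.85% of names at an unadjusted p under 0.05.

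The interaction asks whether the ethanol difference changed with enrichment. In the amygdala it was 0.31 (SE 0.15) for miR-9a-5p and 0.32 (SE 0.13) for miR-9a-3p, with 95% intervals of -0.01 to 0.63 and 0.05 to 0.60. By limma adjusted p was 1 for the 5p arm and 0.957 for the 3p arm, and 0% of 910 names were called, with 3.85% at an unadjusted p under 0.05. The 3 precursor rows gave 0.30 to 0.31, each with an adjusted p of 1. With median-ratio rescaling the arms were at 0.23 and 0.24. Left out of the fit, ethanol non-enriched female replicate 2 took the values of the arms to 0.22 and 0.26.

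In the ventral striatum the ordering of the groups was different, and no difference passed its test. miR-9a-5p averaged 30841 ± 3737 RPM in saline non-enriched, 32328 ± 6487 in saline enriched, 33098 ± 5235 in ethanol non-enriched and 29455 ± 6040 in ethanol enriched rats. All 4 groups overlapped, from 27622 to 37691, 24087 to 42732, 24263 to 37880 and 22734 to 35993 RPM. miR-9a-3p averaged 1008, 1069, 1030 and 1021 RPM in the same order, with single libraries from 853 to 1207 RPM. Ethanol minus saline without enrichment gave 0.09 for the 5p arm (SE 0.15, 95% interval -0.22 to 0.41) and 0.03 for the 3p arm (SE 0.09, -0.16 to 0.23). Over the 4 treatment comparisons the 5 names ranged from -0.18 to 0.10, and none of the 933 names tested was called in any of them (0%). At an unadjusted p under 0.05 there were 2.04% for ethanol without enrichment, 2.25% for ethanol with it, 3.86% for enrichment after saline and 1.82% for enrichment after ethanol. The interaction ranged from -0.23 to -0.10 over the 5 names, with 0% of names called and 2.57% at an unadjusted p under 0.05.

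The ethanol difference without enrichment was also set against itself between the regions, amygdala minus ventral striatum. It was -0.34 (SE 0.19, 95% interval -0.72 to 0.03) for miR-9a-5p and -0.23 (SE 0.13, -0.50 to 0.03) for miR-9a-3p, with an adjusted p of 1 by limma for both. These fits had no block for pairs of regions and so treat the libraries as independent. The other 3 differences between regions called none of the 5 names, and each of the 4 called 0% of 968 names with 3.62% (ethanol without enrichment), 2.38% (ethanol with it), 2.58% (enrichment after saline) and 2.48% (enrichment after ethanol) at an unadjusted p under 0.05. Females did not pass as different from males for any of the 5 names. The log2 difference ranged from -0.08 to -0.03 in the amygdala and from -0.06 to -0.02 in the ventral striatum, and 0% of names were called for sex in either region, with 4.18% and 2.89% at an unadjusted p under 0.05.

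**Figure D3:**
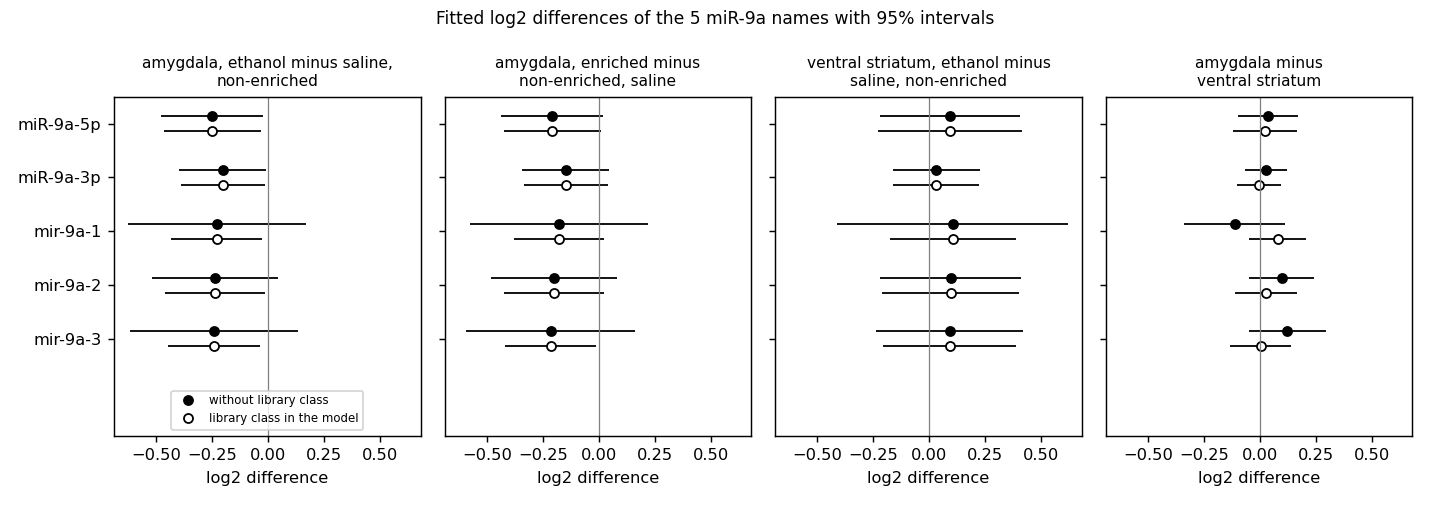
Fitted log2 difference of the 5 names with its 95% interval in 4 comparisons, without (filled) and with (open) the library class in the model. The class cannot move the treatment differences, since each sex and treatment of a region has the same split of classes. It shortens the intervals of the precursor rows, and between the regions it takes mir-9a-1 from -0.11 to 0.08.

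The ratio of the arms asks whether 1 strand was kept more than the other in a group. miR-9a-5p over miR-9a-3p averaged 31.7 ± 2.98 in saline non-enriched, 30.4 ± 2.94 in saline enriched, 30.8 ± 3.89 in ethanol non-enriched and 29.1 ± 1.47 in ethanol enriched amygdala (SD, n = 6 each). In the ventral striatum the ratios were 30.9 ± 4.71, 30.2 ± 5.02, 32.6 ± 7.05 and 29.1 ± 6.30 in the same order. All groups of a region overlapped. Across the 8 treatment comparisons the log2 of the ratio differed by -0.17 to 0.06, with exact permutation p from 0.385 to 0.790 and a Benjamini-Hochberg adjusted p of 0.790 in each. The widest of them, enriched minus non-enriched after ethanol in the ventral striatum, was -0.17 (SE 0.19), and it ran from -0.286 to -0.0662 when single libraries were left out.

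Between the regions the mean ratio was 30.5 ± 2.91 for amygdala libraries against 30.7 ± 5.61 for ventral striatum libraries (SD, n = 24 each), a log2 difference of 0.01 (SE 0.06, permutation p = 0.876 with 100000 draws). This SE and this test treat the libraries as independent, although both regions came from the same rats. The libraries of the ventral striatum spread further, from 20.2 to 40.9, than those of the amygdala, from 25.6 to 35.8. The classes overlapped in the ratio, with 20.2 to 39.7 in low and 23.7 to 40.9 in high libraries.

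**Figure D4:**
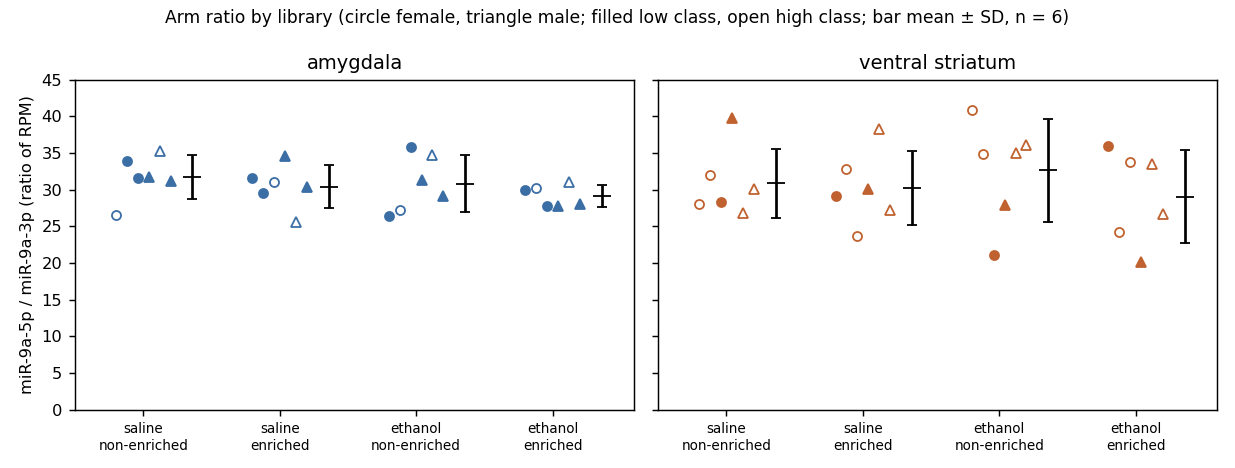
Ratio of miR-9a-5p to miR-9a-3p (RPM over RPM) by treatment group in the amygdala (left) and the ventral striatum (right), 1 symbol a library with the mean and SD (n = 6). Group means lie between 29.1 and 32.6, and single libraries of the ventral striatum reach from 20.2 to 40.9.

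With the mean of each region, sex and treatment taken off, Pearson r of the 2 arms over the 48 libraries was 0.28 (log2(RPM + 1)). Within a class it was higher, 0.61 over 16 low amygdala libraries and 0.58 over 16 high ventral striatum libraries. Among 585 names with a mean of at least 10 RPM, the 3 most like miR-9a-5p were miR-218a-5p (r = 0.83, mean 1794 RPM), mir-218a-1 (r = 0.82) and mir-218b (r = 0.82). All 3 are miR-218 names, and the 2 precursors had nearly the same r within each class (0.703 in low and 0.904 in high). They should not be read as 3 separate likenesses. The 3 most like miR-9a-3p were miR-582-3p (r = 0.77, mean 128 RPM), mir-126a (r = 0.74) and miR-374-3p (r = 0.73). All points share their library and its depth, so these are descriptions. Within the low and the high class r of the 5p arm with miR-218a-5p was 0.76 and 0.89. Of the precursor rows, mir-9a-2 and mir-9a-3 followed each other (r = 0.95), while r of mir-9a-1 was 0.02 with the first and -0.22 with the second. Within a class all 3 rows varied together: r between them was 0.93 to 0.98 over 16 low libraries and 0.99 to 1.00 over 16 high libraries (8 sets of 2 libraries of 1 region, sex and treatment each). All 16 low libraries were of the amygdala and all 16 high ones of the ventral striatum. Class and region therefore cannot be told apart in these values.

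The named relatives of miR-9a are the mir-9b precursors. Rows were found for mir-9b-1, mir-9b-2 and mir-9b-3. Median levels were 0.562, 0.00350 and 0.0594 RPM, less than the 0.635 to 2.39 RPM that 1 precursor read was worth. mir-9b-3 reached 3.68 RPM in 1 library, and 2 libraries had at least 1 RPM. These rows are too low to compare.

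Other microRNAs with known roles near miR-9 were read from 2 lists. The first holds microRNAs that respond to ethanol in neural progenitors, and 3 of its 4 names were in the table. All 3 were lower in the amygdala than in the ventral striatum: miR-153-3p at 3198 ± 786 and 4900 ± 899 RPM (log2 difference -0.64, SE 0.09), miR-21-5p, a microRNA of growth control, at 523 ± 114 and 701 ± 131 RPM (-0.43, SE 0.08), and miR-153-5p at 29.2 ± 7.98 and 40.2 ± 9.07 RPM (-0.47, SE 0.11). Adjusted p was 2.96e-06, 0.000163 and 0.00164 by limma. The median of the list was -0.47 against -0.08 over all names, and 28.5% of all names were called. None of the 3 passed in any treatment comparison.

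The second list holds microRNAs of neuronal fate, with 6 of 6 in the table. Between the regions 2 of the 6 were called, near the 28.5% of all names. miR-184 was higher in the amygdala, at 26.2 ± 12.2 and 11.4 ± 7.45 RPM (log2 difference 1.21, SE 0.17, adjusted p = 9.78e-07 by limma), and miR-25-3p was lower, at 538 ± 94.8 and 624 ± 57.6 RPM (-0.23, SE 0.05, adjusted p = 0.00170). miR-124-3p, the most neuron-specific of them, was at 2421 ± 407 and 2201 ± 306 RPM (0.13, adjusted p = 0.136) and like miR-9a-5p was not called. let-7b-5p, miR-137-3p and miR-125b-5p had adjusted p of 0.658, 0.104 and 0.0511. None of the 6 passed in a treatment comparison. Without enrichment, ethanol minus saline in the amygdala was -0.24 (SE 0.14) for miR-124-3p, near the value of miR-9a-5p.

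The labelled tissue was checked against fixed markers. All 4 neuronal markers were present, with a summed level of 6107 to 12440 RPM in the amygdala and 5759 to 13694 RPM in the ventral striatum. Oligodendrocyte markers summed to 4671 to 15920.3 RPM over both regions, vessel markers to 23628 to 64154 RPM and markers of microglia and leukocytes to 823 to 2301 RPM. Red blood cell markers reached at most 44.9 RPM and markers from outside the brain at most 10.6 RPM, and the leukocyte marker miR-223-3p was at 0 in all 12 non-enriched amygdala libraries. In the ventral striatum 1 marker of the microglia and leukocyte list was also at 0 in all ethanol non-enriched libraries. Choroid plexus markers ran from 3675 to 145266 RPM in the amygdala and from 4572 to 12352 RPM in the ventral striatum.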

How the data were processed

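The authors trimmed bases below a phred score of 20 from 37-cycle reads, aligned them with Bowtie to Rn5, counted them in Partek Flow against miRBase 21 and scaled each library. The deposited signal per name is described as RPM, with mature and precursor rows each scaled to the same total. Tool versions were not given in the sources used here. Rows sharing a name were summed, giving 1063 names from 1129 rows. RPM are no counts, so log2(RPM + 1) was fitted with limma 3.58.1 (R 4.3.3) over names above 0 RPM in at least 6 libraries, with a mean for each sex and treatment, 24 libraries a region, or 48 for region comparisons, and Benjamini-Hochberg adjustment over all names. Single values were tested by permutation (numpy 2.4.6, scipy 1.17.1). The worth of 1 read was taken from the step between low values. Within 0.02, 93.8% to 99.5% of low mature values and 87.6% to 95.5% of low precursor values came out whole, so no count test was run. The fit was checked on simulated data with 200 names changed, and in the amygdala it found 95% of those changed 2-fold, with 9 false calls. The simulation had no library classes or region pairs and tried no change smaller than 2-fold. It therefore does not cover differences of the size of those of miR-9a.

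The members and lists were chosen with earlier results of these data known. The names given are the 5 members, all miR-9b rows, 2 lists of microRNAs (1 of their names, miR-335, was not analysed here) and the 3 names most like each arm. Alternatives were other pseudocounts, filters, scalings, covariates, a replicate block, unlogged values and leaving out each library; those on the library class, the choroid plexus markers and the sign permutation within region pairs were added after seeing the data.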

Additional observations from a re-analysis of the deposited data

Results flagged for a closer look

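Each of the 5 names and the arm ratio was checked in each of the 8 groups of 6 libraries for a library far from the others by Dixon's test (the gap to its neighbour over the group's range). In 48 such checks 3 libraries were found, and chance alone gives about 1 in 20. miR-9a-3p was 886 RPM in the ventral striatum of saline enriched males, replicate 3, where the other 5 libraries lay from 1051 to 1146 RPM. mir-9a-1 was 11025 RPM in the amygdala of ethanol non-enriched males, replicate 2, a library of the high class, where the others lay from 5569 to 6965 RPM. mir-9a-3 was 5959 RPM in the amygdala of ethanol non-enriched females, replicate 2, also of the high class, where the others lay from 9244 to 11189 RPM; its choroid plexus markers were the highest of the amygdala. These 2 were the only high class libraries of the 6 in that amygdala group. No interaction and no difference between regions in a treatment effect passed its test.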

How the results depend on the processing

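No member was called in any treatment, interaction or sex comparison under any alternative tried, and the lowest adjusted p of the amygdala ethanol comparison without enrichment was 0.338, from a fit that left out 1 library. Leaving out each library in turn, the log2 difference of miR-9a-5p there ran from -0.31 to -0.16. Between the regions 2 members were called with the mature reads as a covariate, mir-9a-1 (-0.34) and mir-9a-3 (0.25), and 0 otherwise. Signs between the regions turned as follows: with the class in the model for mir-9a-1 (0.079) and miR-9a-3p (-0.0036); with class and reads for miR-9a-5p (-0.014), miR-9a-3p (-0.023), mir-9a-1 (0.037), mir-9a-2 (-0.041) and mir-9a-3 (-0.0059); in high class libraries alone for miR-9a-5p (-0.064), miR-9a-3p (-0.013), mir-9a-1 (0.010), mir-9a-2 (-0.026) and mir-9a-3 (-0.11); and in low class libraries alone for mir-9a-1 (0.15). The cause was not tested. The arm ratio between regions was -0.17 on the unlogged scale (ratio units) and ran from -0.0155 to 0.0289 (log2) without single libraries. In the ventral striatum, without single libraries, the log2 arm ratio ran from -0.286 to -0.0662 for enrichment after ethanol, from -0.00986 to 0.182 for ethanol without enrichment, from -0.137 to 0.0301 for ethanol with it, and from -0.107 to 0.0409 for enrichment after saline. Of 65 other single differences 22 changed sign under at least 1 alternative and 0 were called. The let-7a-1 to let-7a-2 ratio gave the same class for 48 of 48 libraries. The replicate block changed no call: members called in the amygdala ethanol comparison without enrichment stayed at 0. Same-numbered libraries of different treatments were compared with both sexes counted together. A correlation over 0.1 was found for 14 of 36 pairs in the amygdala and 15 of 36 in the ventral striatum. The numbers were not taken as pairing. In males, however, the class went with the number in all 4 treatments. Male replicate 1 was low and replicate 2 high in both regions, and replicate 3 was low in the amygdala and high in the ventral striatum. The female numbers did not follow the class in this way. Pairing by number among males alone was not tested. Depth limits miR-9a-3p most, with 371 reads in the shallowest library for it.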
